A study of Mus musculus with 6 samples.

Results

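The interferon regulatory factors, encoded by the Irf genes, are transcription factors that share a DNA-binding domain. Members were all probe sets that the platform annotation assigned to a single Irf symbol, 14 probe sets of 8 genes among 18194 genes in all: Irf1, Irf2, Irf3, Irf4, Irf5, Irf7, Irf8 and Irf9. The family was selected on the knockout minus wild-type differences of Irf4, which was lower in the knockout array of every depot, so the genotype differences of its members are given as descriptions without a test. Differences between depots were not used in that choice and were tested.

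RNA came from 3 fat depots (epididymal and subcutaneous white fat, and brown fat) of male mice aged 2 months, kept at room temperature on chow and fasted for 6 hours. Mice were wild type (WT) or lacked the histone demethylase gene Kdm4b in the whole body (KO), and 1 Affymetrix array represented each depot and genotype, 6 arrays in all. The labels leave out how many mice each array stands for, whether 1 mouse gave all 3 depots, or which exons were deleted. There was no replicate within a depot, so the number of arrays limits the precision. Signals below are MAS5 intensities on a linear scale, and a signal of 63.2 served as the floor under which values were not told apart. All 8 members lay above the floor on all 6 arrays. Between 12639 and 13594 genes did so on an array, Kdm4b differed by -0.27, -0.80 and -0.50 (log2) in epididymal, subcutaneous and brown fat, and its 1 probe set may lie outside the deleted part.

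Irf1 and Irf2 are an activator and an antagonist at the same interferon response elements, Irf3, Irf5 and Irf7 are activated downstream of nucleic acid sensors and Toll-like receptors, and Irf9 is the DNA-binding part of a complex with Stat2 that carries the type I interferon signal to the nucleus. Irf4 and Irf8 act mainly in B cells, plasma cells, T cells and myeloid cells, often paired with PU.1, the product of Spi1. Irf4 is also made by fat cells, where fasting induces it and insulin represses it, and where it favours the lipase genes Pnpla2 and Lipe and, with PGC-1α (Ppargc1a), the uncoupling protein gene Ucp1.

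The sequences just before the start sites of 3 members are shown because, by each gene's brightest probe set, Irf4 and Irf7 had the largest mean KO differences over depots and Irf8 the largest depot differences. Each is 250 bases from RefSeq, build GRCm38.p6, printed 5′ to 3′ on the gene's strand, and capitals mark matches to any of 4 motifs searched on both strands: an interferon response element core (GAAA, any 2 bases, GAAA), a STAT site core (TTCNNNGAA), a joint ETS and IRF core (GGAA, any 2 bases, GAAA), which can overlap the first, and TATAAA. Irf4 lies at chr13:30748983-30749232 on the plus strand, Irf7 at chr7:141266425-141266674 on the minus strand, and Irf8 at chr8:120736108-120736357 on the plus strand, the first of the 2 starts listed for Irf8.
Irf4: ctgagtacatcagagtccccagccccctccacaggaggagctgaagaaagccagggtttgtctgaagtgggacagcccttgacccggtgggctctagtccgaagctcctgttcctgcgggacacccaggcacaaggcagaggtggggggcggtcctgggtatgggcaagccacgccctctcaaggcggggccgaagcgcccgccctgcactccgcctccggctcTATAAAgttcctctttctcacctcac
Irf7: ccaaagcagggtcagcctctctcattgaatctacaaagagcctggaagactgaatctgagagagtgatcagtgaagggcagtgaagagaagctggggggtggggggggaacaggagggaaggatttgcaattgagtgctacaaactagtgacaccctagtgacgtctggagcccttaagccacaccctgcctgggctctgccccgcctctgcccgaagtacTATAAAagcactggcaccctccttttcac
Irf8: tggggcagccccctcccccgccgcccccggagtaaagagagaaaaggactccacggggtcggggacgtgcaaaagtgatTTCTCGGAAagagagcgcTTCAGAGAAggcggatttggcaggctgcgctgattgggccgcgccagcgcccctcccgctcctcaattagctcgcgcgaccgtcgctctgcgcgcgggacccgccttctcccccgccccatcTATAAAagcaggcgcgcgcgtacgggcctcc

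The Irf4 and Irf7 windows each held 1 match, TATAAA, from 26 to 21 bases before the start in Irf4 and from 29 to 24 in Irf7. The Irf8 window held TATAAA from 31 to 26 bases before the start and 2 STAT cores, TTCTCGGAA and TTCAGAGAA. TATAAA was present in 12.4% of 32851 RefSeq windows of the same length, the STAT core in 7.02%, the interferon core in 2.98% and the joint core in 2.30%. Among the other members the Irf2 window had matches to the interferon core (GAAAATGAAA), the joint core (GGAAGTGAAA) and the STAT core (TTCCGAGAA), with the first and second overlapping. Irf1 had 1 STAT core (TTCCCCGAA), and the windows of Irf3, Irf5 and Irf9 had 0 matches. These matches describe letters and do not show binding.

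By the brightest probe set of each gene, Irf4 had the largest KO difference of the family in each depot. Its signal was 773.4 in epididymal WT and 242.8 in epididymal KO fat, a 3.19-fold lower level (log2 difference -1.67). In subcutaneous fat it was 785.8 in WT and 443.0 in KO, 1.77-fold lower (-0.83), and in brown fat 461.6 and 280.4, 1.65-fold lower (-0.72). All 3 WT arrays lay above all 3 KO arrays for this probe set, as for 1.67% of the 13233 genes tested and for 1 of 8 members. The mean over depots was -1.07 ± 0.52 (SD, n = 3 depots). In order the levels ran from subcutaneous WT, epididymal WT and brown WT to subcutaneous KO, brown KO and epididymal KO. The gap was 0.02 between subcutaneous and epididymal WT and 0.06 between brown WT and subcutaneous KO (log2). Between brown and epididymal KO it was 0.21. Whether the levels in these pairs differ was not tested. The KO minus WT differences of probe sets of one gene disagreed, with an SD of 0.31 in epididymal and 0.32 in subcutaneous and in brown fat (log2). This SD does not measure gaps between depots, and it leaves out the spread between mice.

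The lower level of Irf4 rested on 1 of its 2 probe sets. The other was dim, at 1.08 to 2.02 times the floor, with signals of 69.5 and 68.5 in epididymal WT and KO, 68.3 and 80.5 in subcutaneous WT and KO, and 127.7 and 100.7 in brown WT and KO. Its differences were -0.02, 0.24 and -0.34 in the 3 depots, so the subcutaneous direction was opposite. This probe set was brighter in both brown arrays than in the 4 white ones, whereas the bright probe set was not. With the mean of both probe sets the Irf4 differences were -0.85, -0.30 and -0.53. Which probe set better follows the transcript was not tested.

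Irf7, the factor that amplifies type I interferon production, came next by its mean over depots, and in subcutaneous fat Irf2, Irf5 and Irf8 differed more. Its signal was 407.4 in epididymal WT and 217.1 in KO (-0.91), 708.6 and 585.8 in subcutaneous fat (-0.27), and 289.4 and 216.3 in brown fat (-0.42). The subcutaneous difference was within the probe set SD. Its 1 probe set leaves no second reading. Irf2 was 1748.7 in epididymal WT and 1373.5 in KO (-0.35), 2220.8 and 1487.0 in subcutaneous fat (-0.58), and 686.1 and 750.6 in brown fat (0.13), so brown fat went the other way by less than the probe set SD.

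The other members differed less. Irf1, whose signal was 1466.0, 2567.9 and 1054.5 in the epididymal, subcutaneous and brown WT arrays, was 1287.9, 2429.4 and 994.3 in KO, differences of -0.19, -0.08 and -0.08. Irf9 went from 528.4 to 514.5, from 965.4 to 1020.0 and from 363.5 to 336.7 in the same order (-0.04, 0.08 and -0.11). Irf8 went from 553.3 to 529.4, from 2180.8 to 1749.2 and from 140.0 to 127.6 (-0.06, -0.32 and -0.13), and its second probe set had 0.19, -0.19 and 0.14. For these 3 genes KO and WT lay within or close to the probe set SD in every depot.

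Probe sets of Irf3 and Irf5 disagreed. The brightest of 4 Irf3 probe sets, which can cross-hybridise, lay between 1281.8 and 1575.3 on all arrays and differed by 0.06, -0.02 and -0.11. A second, dimmer one went from 295.1 to 202.9 in epididymal, from 243.8 to 370.2 in subcutaneous and from 566.6 to 284.6 in brown fat (-0.54, 0.60 and -0.99), the last a larger difference than that of Irf4 there. Another had -0.53, 0.11 and -0.67, and the dimmest was at or near the floor. The brightest Irf5 probe set was 270.6 in subcutaneous WT and 377.0 in KO (0.48), while the other had 602.0 and 571.1 (-0.08). In brown fat the same 2 Irf5 probe sets differed by -0.05 and -0.55.

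**Figure D1:**
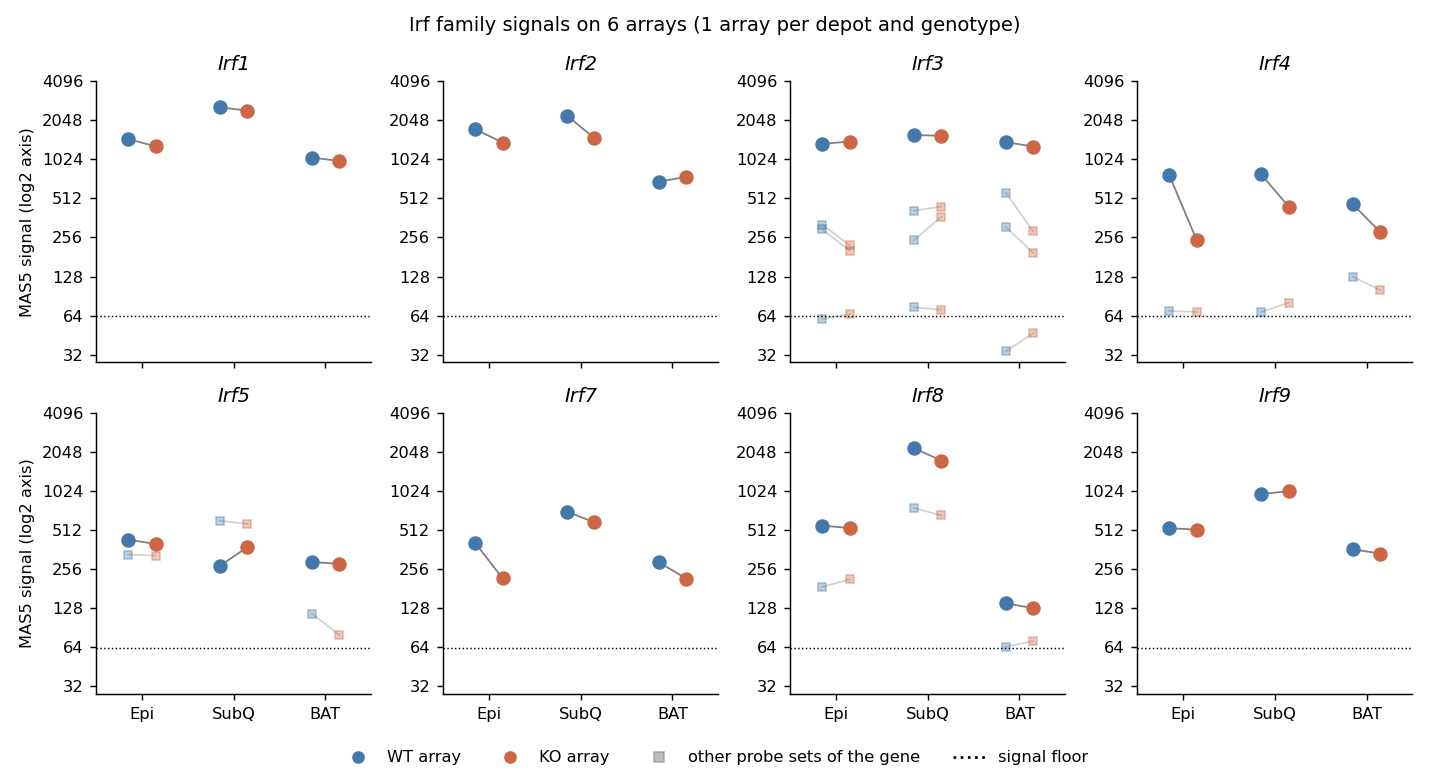
MAS5 signal (log2 axis) of each Irf gene on the 6 arrays, with epididymal (Epi), subcutaneous (SubQ) and brown (BAT) fat on the horizontal axis, WT in blue and KO in orange, the brightest probe set as large circles and other probe sets as pale squares. The bright Irf4 probe set drops from 773.4 to 242.8 in epididymal fat, while its pale squares stay between 68.3 and 127.7, near the dotted floor at 63.2.

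Across the family 7 of 8 members were lower in the KO array of epididymal fat, 6 in subcutaneous and 7 in brown fat, against 53.3%, 45.3% and 53.6% of all genes measured in those depots. After quantile normalization these counts were 6, 5 and 6, and after centring each array on its median 4, 7 and 2, since that centring moved the median of all genes to 0.107, -0.118 and 0.106. Counted against the median of all genes, 7, 6 and 7 members were lower both under that centring and on the deposited scale. The medians over the 8 members were -0.15, -0.18 and -0.11, beside -0.023, 0.036 and -0.028 over all genes. Irf1, Irf4, Irf7 and Irf8 were lower in all 3 depots, 4 of 8 members, as were 17.2% of 12157 genes measured in each depot. Irf4 is among them by the choice of the family. After centring on the median 2 members remained, Irf4 and Irf7. The second Irf8 probe set was higher in KO in epididymal (0.19) and brown fat (0.14). Relative to the median of all genes under that centring, Irf4 differed by -1.65, -0.86 and -0.69, and Irf7 by -0.88, -0.31 and -0.39.

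Past 2-fold, 1 of 8 members (Irf4) was lower in epididymal fat, where 1.41% of 13225 genes were, and 0 in subcutaneous and brown fat, where 0.722% of 13857 and 2.43% of 13779 genes were. No member was at least 2-fold higher in any depot, beside 0.870%, 2.20% and 1.10% of all genes. Irf4 was 1 of 36 genes, 0.296% of 12157, that were at least 1.5-fold lower in all 3 depots. These shares stand beside a contrast that chose the family. Ranked by difference, Irf4 was among the 29 lowest genes in epididymal fat, the 180 lowest in subcutaneous and the 809 lowest in brown fat.

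**Figure D2:**
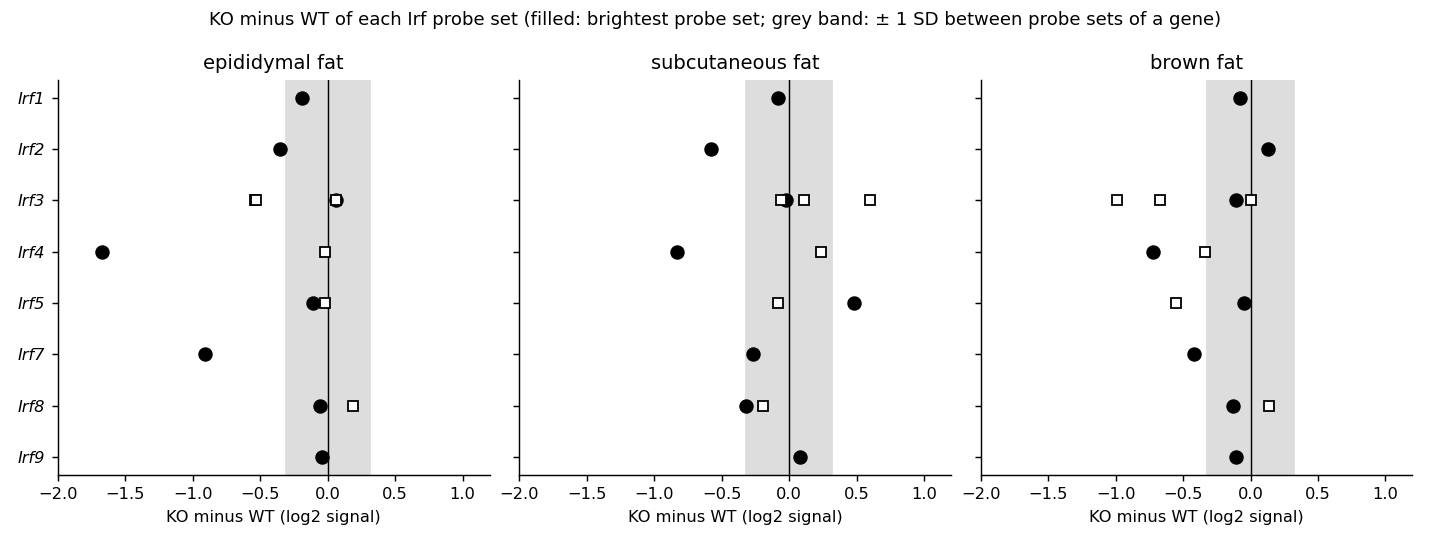
KO minus WT difference in log2 signal for every Irf probe set in each depot, filled for the brightest probe set of a gene and open for the others, with the grey band at 1 SD between probe sets (0.31 to 0.32). Filled Irf4 points lie at -1.67, -0.83 and -0.72, and its open points at -0.02, 0.24 and -0.34.

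Depots differed more than genotypes for most members. limma was fitted to the 13233 genes that exceeded the floor on 3 or more arrays, with terms for depot and genotype, so the WT and KO arrays of a depot served as its 2 replicates and p-values reflect their spread only. Brown fat had lower levels than the mean of the white depots of 5 of 8 members, where 31.1% of all genes were lower and 21.6% higher. Among those, Irf8 was 7.69-fold lower (log2 -2.94, SE 0.13, limma adjusted p = 0.000436), with signals of 140.0 and 127.6 in brown fat against 529.4 to 2180.8 in white fat. Its second probe set was 64.7 and 71.4 in brown fat against 186.7 to 755.4. The brown and white arrays of Irf8 did not overlap for either probe set, and both brown arrays lay below all white arrays for 4 of 8 members and 33.9% of all genes tested.

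Irf2 was 2.34-fold lower in brown fat (log2 -1.23, SE 0.18, limma adjusted p = 0.00435), Irf9 2.06-fold (-1.04, SE 0.12, limma adjusted p = 0.00209) and Irf1 1.81-fold (-0.86, SE 0.12, limma adjusted p = 0.00358). These 3 genes and Irf8 were the 4 members whose brown arrays lay below all 4 white arrays. Irf7 was 1.75-fold lower (-0.81, SE 0.17, limma adjusted p = 0.0143), but epididymal KO (217.1) lay between brown KO and brown WT, and the call was lost without brown WT or without brown KO (limma adjusted p = 0.0947 and 0.0562). With no filter on low signals, Irf2 and Irf7 also missed the threshold (limma adjusted p = 0.0539 and 0.0902). Irf4 did not pass, at -0.49 with a 95% interval from -1.08 to 0.10 (limma adjusted p = 0.133). Without the epididymal KO array it did (-0.72, limma adjusted p = 0.0296), and with the mean of its probe sets the value was 0.09. Irf3 (-0.14, interval -0.45 to 0.18) did not pass, and Irf5 (-0.35, interval -0.79 to 0.09) passed only with the mean of its probe sets (-1.27, limma adjusted p = 0.00201). Among all genes called, 41.0% were higher in brown fat, a share that quantile normalization moved to 48.2% and median centring to 46.1%.

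Between the white depots, 4 of 8 members were higher in subcutaneous than in epididymal fat and 0 lower, where 3.88% of all genes were higher and 1.16% lower. Irf8 was 3.61-fold higher (log2 1.85, SE 0.15, limma adjusted p = 0.00615), Irf7 2.17-fold (1.12, SE 0.20, limma adjusted p = 0.0486), Irf9 1.90-fold (0.93, SE 0.14, limma adjusted p = 0.0328) and Irf1 1.82-fold (0.86, SE 0.14, limma adjusted p = 0.0368). In these 4 genes and Irf3, 5 of 8 members, both subcutaneous arrays lay above both epididymal arrays, as they did for 26.4% of all genes tested. Leaving out any single array of the 6 ended the calls for Irf1, Irf7 and Irf9, with limma adjusted p from 0.0531 to 0.233, and leaving out either epididymal array ended that for Irf8 (0.0837 and 0.0642). All 4 calls were also lost with the floor at the 20th percentile and with no filter on low signals (limma adjusted p from 0.0557 to 0.202). Median centring, which put the median of all genes at -0.33, also ended those for Irf1 and Irf9 and called Irf5 lower (-0.72, limma adjusted p = 0.0471). It moved the share of higher genes among all calls from 76.9% to 27.1%, with 61.9% after quantile normalization. Irf4 differed by 0.45, with an interval from -0.24 to 1.13 (limma adjusted p = 0.404).

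**Figure D3:**
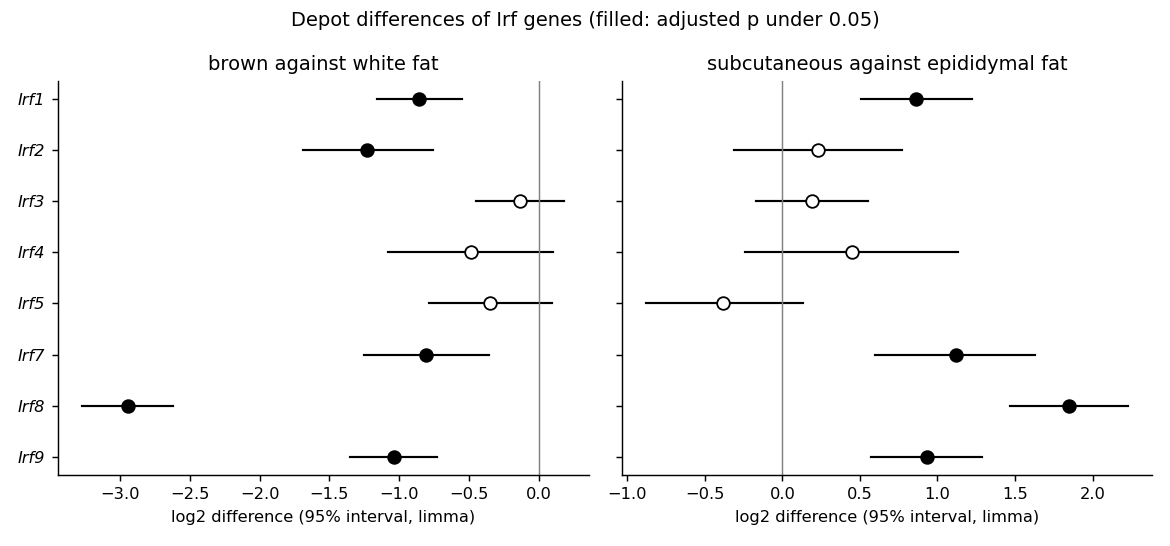
Depot differences of the 8 Irf genes in log2 signal with 95% intervals from limma over 6 arrays, for brown against white fat and for subcutaneous against epididymal fat, filled where the adjusted p was under 0.05. Irf8 lies farthest from 0 in both panels, at -2.94 and 1.85, and the Irf4 intervals include 0.

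Irf4 is expressed both in lymphoid cells and in fat cells, so marker levels are set beside it. In bulk tissue, fewer cells of a type and less RNA per cell cannot be told apart. Of 12 B cell markers, 10 had a probe set, and their summed signal was 2132 in epididymal WT, 1596 in epididymal KO, 17556 in subcutaneous WT, 16544 in subcutaneous KO, 1003 in brown WT and 913 in brown KO. Genes at the floor enter these sums at the floor value, and in epididymal WT only 5 of the 10 were above it. The WT sum was thus at least 8.23-fold higher in subcutaneous than in epididymal fat, while Irf4 was 1.02-fold higher. Ms4a1, which encodes CD20, was 409.3 in epididymal and 5199.2 in subcutaneous WT. Cr2 and Vpreb3 were at the floor on both epididymal arrays, and Cd79a was at it in epididymal and brown WT. In brown fat 8 of 10 were above the floor in WT and 7 in KO.

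The summed B cell signal in WT exceeded that in KO 1.34-fold in epididymal fat, 1.06-fold in subcutaneous fat and 1.10-fold in brown fat, beside 3.19-fold, 1.77-fold and 1.65-fold for Irf4. In epididymal fat 5 of 8 B cell markers measured were lower in the KO array, beside 53.3% of all genes. Cd22 (311.9 to 180.5) and Ms4a1 (409.3 to 267.8) were among the 5. The 3 higher ones, Cd79a, Fcer2a and Pax5, were at the floor in epididymal WT. Also lower there was Jchain, the antibody joining chain gene of plasma cells (1579.8 to 363.5). All 6 plasma cell markers were lower there, with a median of -0.33. In subcutaneous fat 3 plasma cell markers were lower and 3 higher, where 45.3% of all genes were lower. In brown fat 2 were lower and 3 higher, where 53.6% of all genes were lower. Jchain was higher in KO in both (4732.9 to 6494.4 and 142.8 to 348.6), while Xbp1, a factor gene of secretory cells that other cells also express, was lower in both (-0.46 and -0.46). The list's summed signal, most of it from Xbp1 on each array, was lower in KO in every depot, 16508 and 11773 in epididymal WT and KO, 19623 and 17842 in subcutaneous WT and KO, and 8129 and 6415 in brown WT and KO. The part of plasma or B cells in the epididymal Irf4 difference was not tested.

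T cell markers, 9 of 12 with a probe set, summed to 866 and 865 in epididymal WT and KO, 7876 and 6384 in subcutaneous WT and KO, and 728 and 717 in brown WT and KO. Much of the epididymal and brown sums was floor value. Above the floor were 7 in epididymal WT, 4 in epididymal KO, 3 in brown WT and 2 in brown KO. Of 7 measured in epididymal fat, 5 were lower in KO and 2 higher, Lat (64.6 to 116.1) and Cd2 (180.8 to 204.8). In subcutaneous fat all 9 were above the floor and 9 of 9 were lower in KO, with a median of -0.24. Of 3 measured in brown fat, 1 was lower and 2 higher. Over all genes 53.3%, 45.3% and 53.6% were lower in epididymal, subcutaneous and brown fat. Cd3e and Cd3d, which encode chains of the T cell receptor complex, were at the floor on both brown arrays. Of 7 dendritic cell markers, 6 had a probe set, and they summed to 1318 and 1672, 2777 and 2692, and 736 and 737 in the same order. The sum was thus higher in epididymal KO, where Irf4 was lower. Of 4 markers measured there, 3 were higher, with the largest gain in signal for Cd209a (348.1 to 612.5). Zbtb46 was lower (317.1 to 256.5), and Xcr1 and Ccr7 were at the floor on both epididymal arrays. The 8 macrophage markers summed to 34627 and 37874, 41953 and 32462, and 8701 and 6643. Lower in KO were 1 of 8 in epididymal, 8 of 8 in subcutaneous and 7 of 7 measured in brown fat, beside the same shares of all genes.

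Adipocyte markers, 8 of 10 with a probe set, had sums that differed less between arrays than those of the other lists. They summed to 143146 and 132658 in epididymal WT and KO, 119237 and 118609 in subcutaneous WT and KO, and 146058 and 129824 in brown WT and KO, with medians of -0.15, -0.03 (0.03 after quantile normalization) and -0.17. Single markers differed between depots, with 3 of 8 higher and 2 lower in brown than in white fat by limma. Over all genes 21.6% were higher and 31.1% lower in that contrast. Retn, the resistin gene, was 7.42-fold lower and Slc2a4, the insulin-responsive glucose transporter gene, 2.62-fold higher in brown fat (limma adjusted p = 0.000802 and 0.00243). Skeletal muscle markers were not alike between arrays. Their sum was 4871 and 2006 in epididymal, 51008 and 58245 in subcutaneous and 16239 and 638 in brown fat, so that muscle transcripts moved with Irf4 in epididymal and brown fat and against it in subcutaneous fat. Their part in the Irf4 values was not tested.

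**Figure D4:**
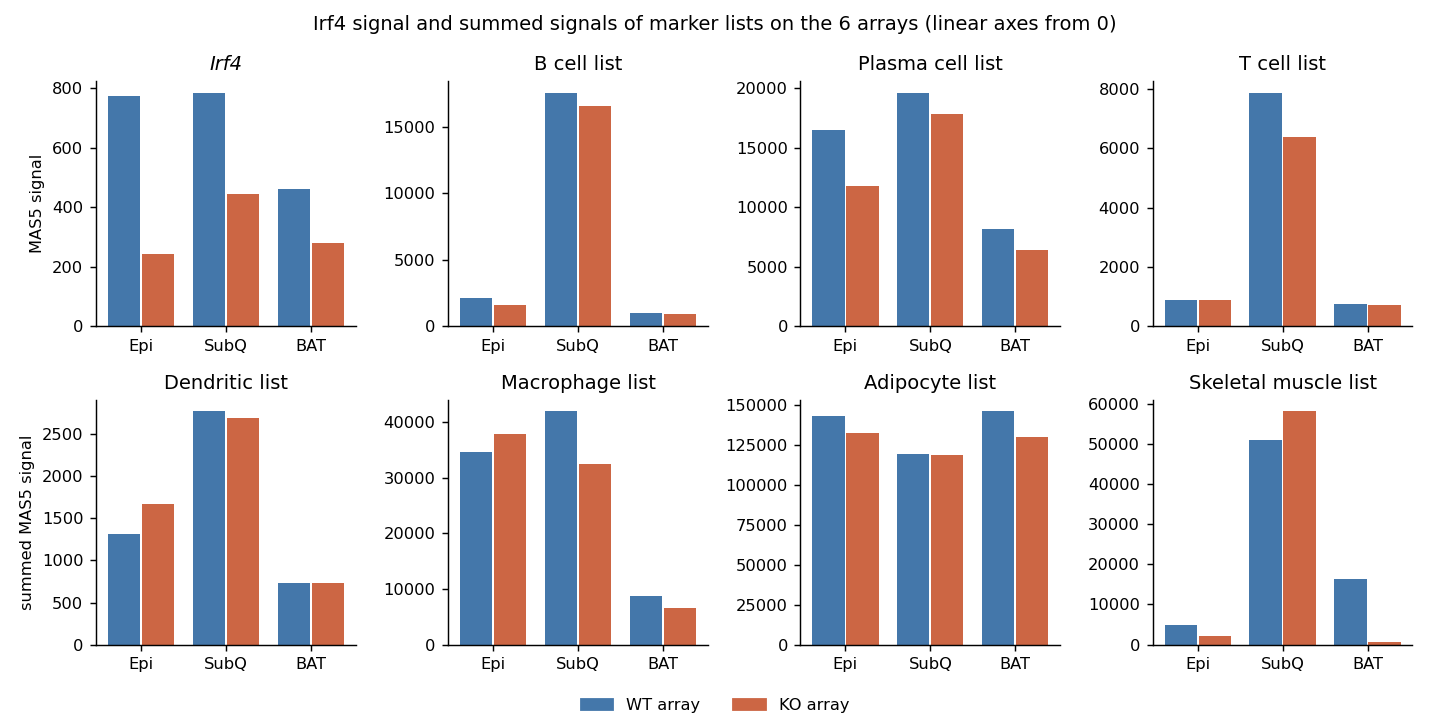
Signal of the bright Irf4 probe set and summed signals of 7 marker lists on the 6 arrays, on linear axes from 0, WT in blue and KO in orange for epididymal (Epi), subcutaneous (SubQ) and brown (BAT) fat. Irf4 is 773.4 and 785.8 in the white WT arrays, where the B cell sums are 2132 and 17556.

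In WT the depot order of Irf8, Irf1, Irf7 and Irf9 was subcutaneous, epididymal, brown, from high to low. The summed B cell, plasma cell, T cell, dendritic and macrophage markers had the same order. In the limma fit 9 of 10 B cell markers and 7 of 8 T cell markers tested were higher in subcutaneous than in epididymal fat. Over all genes 3.88% were higher. Of the markers tested, 0 of 8 macrophage and 0 of 4 dendritic markers were higher or lower. Ccr7, at the floor on both epididymal arrays and 941.4 in subcutaneous WT, was not among those tested. With the lower floor or no filter, far fewer of all genes were called between the white depots. In brown against white fat 9 of 10 B cell, 7 of 8 T cell, 8 of 8 macrophage and 3 of 4 dendritic markers were lower. Over all genes 31.1% were. Irf8 is a gene of B cells, dendritic cells and macrophages, and the part of cell composition in its depot difference was not tested.

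Among 11 partner factors of Irf4 in immune cells, the median difference was -0.07 in epididymal fat (0.06 after median centring), 0.01 in subcutaneous fat (-0.14) and 0.08 in brown fat (0.21), and 0 differed 2-fold or more. Spib, a B cell relative of PU.1, went from 154.3 to 83.2 in epididymal fat and from 1640.2 to 1470.1 in subcutaneous fat. Pou2af1, a B cell coactivator gene, went from 205.1 to 112.9 in epididymal and from 1191.6 to 1374.1 in subcutaneous fat, and lay at the floor on both brown arrays. Ikzf1, the lymphoid factor Ikaros, was 163.0 in brown WT and 85.8 in brown KO. Spi1 was higher in epididymal KO (205.2 to 290.8) and lower in brown KO (147.3 to 108.2). Subcutaneous exceeded epididymal fat 13.7-fold in Spib and 5.02-fold in Ikzf1 (limma adjusted p = 0.00511 and 0.0153).

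Lipolytic and thermogenic genes linked to Irf4 in fat cells were mostly lower in the KO arrays. Of 10 measured, 8 were lower in epididymal fat, 7 in subcutaneous fat and 9 in brown fat, beside 53.3%, 45.3% and 53.6% of all genes. The adipocyte markers given above were lower in 8 of 8, 5 of 8 and 7 of 8. Medians of the 10 linked genes were -0.33, -0.10 and -0.20. These stayed below 0 under both other scalings, at -0.07 in brown fat after median centring. Pnpla2, the adipose triglyceride lipase gene, went from 12620.2 to 9118.9 in epididymal (-0.47), from 11158.2 to 9507.0 in subcutaneous (-0.23) and from 18189.6 to 15142.7 in brown fat (-0.26). Lipe, the hormone-sensitive lipase gene, differed by -0.16, 0.11 and 0.02, and Foxo1, a fasting-activated factor upstream of Irf4, by -0.19, -0.06 and -0.48. Ppargc1a was 467.5 in epididymal WT and 273.4 in KO (-0.77), and Ucp1 was 2934.3 in subcutaneous WT and 1427.8 in KO (-1.04). Dio2, a thyroid hormone deiodinase gene, was 7811.1 in brown WT and 3912.6 in KO. Between depots Ucp1 was 12.5-fold and Pnpla2 1.58-fold higher in brown than in white fat (limma adjusted p = 0.000454 and 0.0102), a contrast in which Irf4 did not pass.

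For the steps that activate the family, the KO differences varied between depots and between lists. Of 14 sensor, adaptor and kinase genes, 10 of 14 were lower in epididymal, 12 of 14 in subcutaneous and 8 of 13 measured in brown fat. Over all genes 53.3%, 45.3% and 53.6% were lower. The medians of the 14 genes were -0.14, -0.28 and -0.06, the last turning to 0.03 after quantile normalization and 0.08 after median centring. Ticam1, the adaptor of Toll-like receptor 3 and 4 signals, had -0.81, -0.37 and -0.41, and Tbk1, the kinase of Irf3, -0.20, -0.10 and 0.06. Tlr9, a DNA-sensing receptor gene, was 129.8 in brown WT and at the floor in brown KO, at least 2.05-fold lower. The 8 receptor, kinase and Stat2 genes had medians of 0.01, 0.15 and -0.13 (0.01 in brown fat after median centring), and 0 passed 2-fold.

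Type I interferon-induced genes, the targets of the Irf9 complex and of Irf7, were lower in 7 of 12 measured in epididymal, 11 of 12 in subcutaneous and 8 of 12 in brown fat. Among all genes the shares lower in KO were 53.3%, 45.3% and 53.6% in the same order, so the epididymal count lay near its background. Medians of these interferon-induced genes were -0.13, -0.37 and -0.33, and median centring turned the epididymal one to 0.01. Oasl2, a gene of the oligoadenylate synthetase family, was 768.3 in subcutaneous WT and 300.3 in KO, 2.56-fold lower, with -0.83 in epididymal and -0.52 in brown fat. Ifit1 had -0.53, -0.47 and -0.80, and Usp18, a brake on interferon signalling, -0.42, -0.41 and -0.26. Oas2 was -0.79 in both white depots and 0.61 in brown fat. Rtp4 had 0.11, -0.26 and -0.63, and Ifit2 0.37, -0.26 and -0.60. Among 11 genes induced by interferon gamma and Irf1, medians were -0.07, -0.15 and -0.19 (median centring gave 0.06 in epididymal fat), and 0 passed 2-fold. Cxcl10, a chemokine gene, had the widest range, -0.33, 0.70 and -0.93.

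Over the 3 depots together, genotype was called for 0% of the 13233 genes by limma with adjustment for depot, and the lowest adjusted p was 0.439. At an unadjusted p under 0.05 there were 501 genes higher and 601 lower in KO. limma with an intensity trend called 19 higher and 14 lower, and median centring gave 4 higher. In the fit on the deposited scale, 0 genes of the pathway and marker lists passed.

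**Figure D5:**
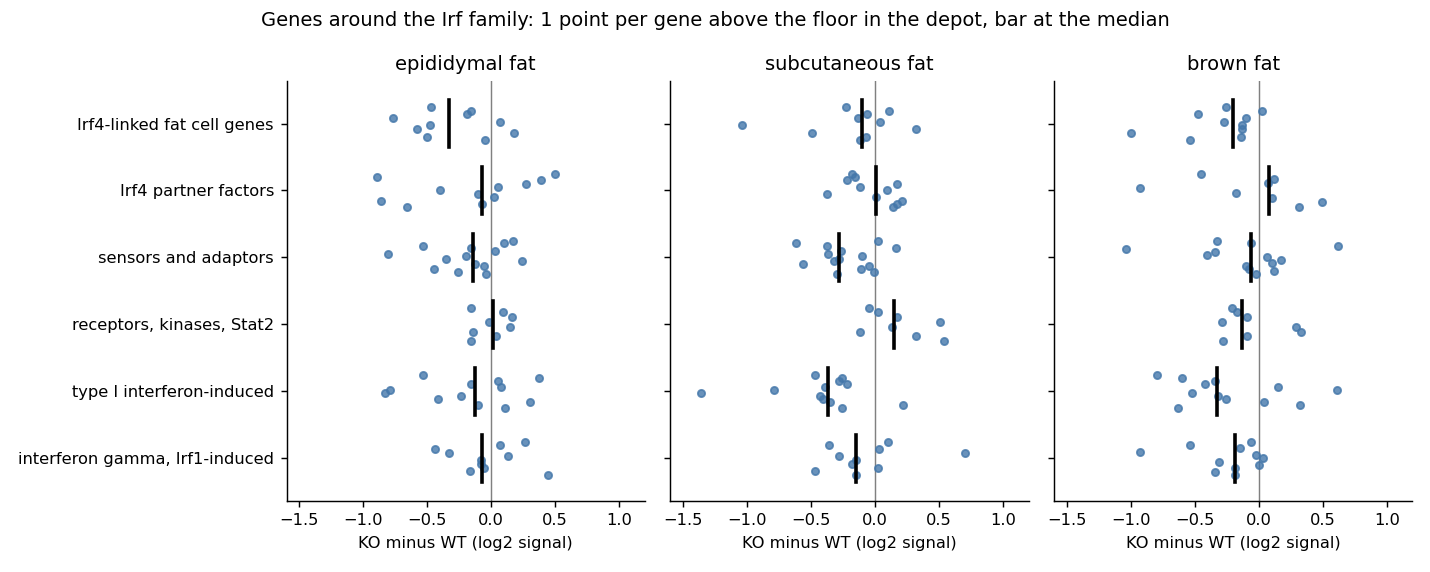
KO minus WT differences in log2 signal of genes around the Irf family, 1 point per gene above the floor on at least 1 array of the depot, with a bar at each list's median. The type I interferon-induced genes have medians of -0.13, -0.37 and -0.33, and the partner factors -0.07, 0.01 and 0.08.

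Genes whose signals over the 6 arrays most resembled those of the bright Irf4 probe set were ranked by Pearson r among 6693 others with a range of at least 1 on the log2 scale. All 6 points share the same arrays and scaling, and no p is given. Gucy1a2, a soluble guanylate cyclase subunit gene, led with r = 0.972, followed by Ccdc62 (0.969), Ncam2 (0.944), Usp49 (0.943) and Rexo5 (0.925). Dbp, a clock output factor gene, had 0.924, Ank3 0.914, Zfp87 0.911, Slc52a3 0.909 and Tst 0.907. Gucy1a2 went from 191.5 to 86.8 in epididymal, from 245.2 to 152.8 in subcutaneous and from 134.6 to 102.4 in brown fat. Among the Irf genes Irf7 came nearest, with r = 0.793 at rank 65, and Irf8, the closest relative of Irf4 in the family, had 0.485 at rank 1047.

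By the distance between the 3 KO differences alone, among 10876 genes above the floor on all arrays, the nearest were Acsm3, an acyl-CoA synthetase family gene (-1.54, -0.71 and -0.40), Ces1f, a carboxylesterase gene (-1.28, -0.81 and -0.77) and Fam13a (-1.34, -0.71 and -0.48). Tmem88b, Slc1a3, Net1, Zmym3, Etfbkmt, Gucy1a2 and Zfp612 completed the nearest 10, with distances from 0.52 to 0.64. Of the 2 lists of 10, 1 gene, Gucy1a2, was in both. Slc1a3, a glutamate and aspartate transporter gene, went from 5017.4 to 1941.0 in epididymal, from 5967.3 to 2418.9 in subcutaneous and from 1965.0 to 1130.8 in brown fat. Irf7 lay at a distance of 0.99 and the other members between 1.59 and 2.14.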

How the data were processed

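The deposited values were probe set intensities on a linear scale, made by the authors with MAS5 in Affymetrix Expression Console, per the submitters' processing notes, with versions not given in the sources used here. The 2%-trimmed mean was 500.0 on every array, so overall brightness is equal by construction, and detection calls were not used. Of 45037 non-control probe sets 932 had several symbols and 9160 none, and 34958 probe sets with 1 symbol were used for names, 34754 of them found in RefSeq (GRCm38.p6). The annotation was GEO's for the platform.

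The floor, 63.2, was the median over arrays of the 40th percentile among non-control probe sets. Lower signals were set to it before taking log2. Each gene took its brightest probe set by mean log2 signal, and counted as measured in a depot where at least 1 of its 2 arrays exceeded the floor. limma 3.58.1 (R 4.3.3) was fitted with Benjamini-Hochberg adjustment over all genes and a threshold of 0.05, after a test on simulated data. Named were all members, the 10 most similar genes by each measure, and a selection from each list. That selection was not always of the genes with the largest differences. Members and lists were chosen with earlier results of these data known. Python 3.11.15, pandas 2.3.3 and matplotlib 3.10.9 were used.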

Additional observations from a re-analysis of the deposited data

Results flagged for a closer look

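In all, 3 genes of the marker lists were at least 2-fold higher in the KO array of one depot and at least 2-fold lower in another, with 1 array on each side, so the difference between depots was not tested. As log2 differences, Jchain had -2.12 in epididymal fat and 1.29 in brown fat. For epididymal, subcutaneous and brown fat in turn, Myh1, a fast muscle myosin gene, had -3.14, 4.41 and -4.11, and Mb, the myoglobin gene, -1.41, 4.33 and -4.25. The Irf genes had no such opposite pair past 2-fold.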

How the results depend on the processing

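With the mean of all probe sets Irf4 differed by -0.85 in epididymal and -0.30 in subcutaneous fat, and 0 members were at least 2-fold lower in epididymal fat. With its dimmer probe set alone, chosen after seeing the data, it differed by -0.02, 0.24 and -0.34 in epididymal, subcutaneous and brown fat. At 1.5-fold, 2 members were lower in epididymal fat, 1 in subcutaneous and 1 in brown fat. Brown against white fat, 1 member was lower without probe sets whose names end in _x_at, _s_at or _a_at, and 3 without a filter. Without those probe sets Irf1, Irf2, Irf7 and Irf9 gave no value, since each had only 1 probe set, which was left out. With 1 array left out, between 1824 and 2722 of all genes were higher, and the Irf4 difference with the mean of probe sets was 0.09. In subcutaneous against epididymal fat, members higher numbered 2 after median centring (with 1 lower) and 0 with the floor at the 20th percentile. They numbered 0 without a filter and 1 without the probe sets of those name endings, where the same members gave no value. The Irf2 and Irf3 differences turned to -0.11 and -0.16 after median centring, Irf5 to 0.23 with the mean of probe sets, and without 1 array Irf2 lay between -0.00500 and 0.46 and Irf4 between -0.00397 and 0.89. Of all genes, 53 were higher and 7 lower with the lower floor, 61 and 21 without a filter, 64 to 463 and 10 to 114 with 1 array left out. Lower genes numbered 255 after quantile normalization, 1384 after median centring, 339 with the floor at the 60th percentile and 530 with an intensity trend. For genotype over depots, 4 genes were higher after median centring, and 19 higher and 14 lower with an intensity trend. Depot was a term of the genotype fit, so WT and KO were compared within depots there.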
